A study of Drosophila melanogaster with 14 samples.

Results

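Ace, cpx, GABA-B-R3 and Alk are 4 genes of nerve cell communication, taken by name from a table of 7624 genes. The cells were BG3 (ML-DmBG3-c2), a line started from the larval central nervous system of Drosophila melanogaster. They were picked with their total RNA and nt.gene values known, so those values are described here and nothing is tested with them. The labels place 14 total RNA libraries in 4 groups, with 6 from cells given a mock RNA interference treatment (Mock), 3 from cells treated against Polyhomeotic (Ph), 3 against Sex combs extra (Sce) and 2 against Polycomb (Pc). All groups were grown in Schneider's medium with serum and insulin, and the double-stranded RNA, in most experiments a mixture of a pair of fragments per target, was added in a low-serum medium, per the labels' protocols. What the Mock cells received in its place is not stated there. The values are the authors' mean per group, with their ratio over Mock and its p-value and q-value. No spread between libraries can be given beside them, and how deeply each was sequenced is unknown.

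The 3 targeted proteins belong to Polycomb Repressive Complex 1 (PRC1), which holds developmental genes silent and also binds some active genes. The 4 genes act at different places of the synapse. Complexin, the product of cpx, binds the assembled SNARE proteins at the vesicle membrane, where it clamps spontaneous release and aids evoked release. Acetylcholinesterase, the product of Ace, breaks down acetylcholine in the cleft and so ends the signal of the main excitatory transmitter of the insect brain. GABA-B-R3 encodes a protein of the metabotropic GABA receptor family, whose members act through G proteins. Alk encodes a receptor tyrosine kinase whose ligand in flies is Jelly belly (jeb), and the pair acts in the visceral muscle, in the growth of the nervous system and at the neuromuscular synapse. The reference tables used here pair names and identifiers but hold no sequences, so none is shown. All 4 are protein-coding genes in Ensembl release 115, as FBgn0041605 (cpx), FBgn0000024 (Ace), FBgn0031275 (GABA-B-R3) and FBgn0040505 (Alk).

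Several facts of the table bear on every value. The targeted genes stood above Mock in their own groups, with ratios between 8.09 (ph-d) and 27.0 (Sce) in the authors' deposited table, so the RNA signal does not show the labelled depletion and the groups are named by their labels. The double-stranded RNA itself was not told apart from the genes' own RNA. Every listed gene had a mean of at least 798.3 in 1 or more groups. Whether the signal was divided by gene length is not given, so levels are compared between groups and not between genes. A second set of columns, marked nt.gene, covers Mock, Ph and Sce and is scaled separately; neither header nor labels say what it measured or from which samples. In bulk RNA, fewer cells of a type and less RNA per cell cannot be told apart.

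The RNA of cpx was lower in every labelled group than in Mock. The authors' mean was 47851 in Mock, 15882 with Ph, 18936 with Sce and 21372 with Pc. The 3 labelled groups lay close to one another and all under Mock. In the authors' deposited table its ratios were 0.332 with Ph (p = 0.05, q = 0.159), 0.396 with Sce (p = 0.068, q = 0.271) and 0.447 with Pc (p = 0.164, q = 0.376). None of the 3 passed a q-value of 0.05, and they share the Mock libraries, so their common direction is not independent. Of the 7624 genes, 186 had a lower ratio than cpx with Ph, 153 with Sce and 302 with Pc. In the nt.gene columns cpx differed less, with authors' means of 44367 in Mock, 34997 with Ph and 43989 with Sce. Those nt.gene ratios were 0.789 (q = 0.379) and 0.992 (q = 0.812) in the authors' deposited table.

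The RNA of Ace was low in Mock and highest with Ph. The authors' mean was 61.4 in Mock, 1391 with Ph, 5.99 with Sce and 87.4 with Pc. With Ph it was 232-fold the mean with Sce and 15.9-fold the mean with Pc, differences for which no test was possible. The ratio of Ph to Mock was 22.7 in the authors' deposited table (p = 0.001, q = 0.027), and 97 of 7624 genes had a higher one. With Sce the ratio was 0.098 (q = 0.403) and with Pc it was 1.425 (q = 0.604) in the authors' deposited table. At these low means the size depends on the pseudocount, and the log2 difference from Mock with Sce was -3.16 with a pseudocount of 1 and -0.61 with 100. Ace is among the genes listed through a labelled group alone, since its other 3 means lie far under 798.3, so a gene with this Mock level had to differ to be listed. There were 363 genes with a Mock mean under that level. In the nt.gene columns the authors' means of Ace were 260 in Mock, 517 with Ph and 252 with Sce. The nt.gene ratio with Ph was 1.99 with a q-value of 0.435 in the authors' deposited table, and with Sce it was 0.97 (q = 0.807).

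GABA-B-R3 had the reverse pattern, high in Mock and lowest with Ph. The authors' mean was 87899.6 in Mock, 14282 with Ph, 93582 with Sce and 76202 with Pc. Mock, Sce and Pc lay together, and the mean with Sce was 6.55-fold and that with Pc 5.34-fold the mean with Ph. The ratio of Ph to Mock was 0.162 in the authors' deposited table (p = 0.001, q = 0.03), and 39 genes had a lower one. With Sce and Pc the ratios were 1.065 (q = 0.583) and 0.867 (q = 0.561) in the authors' deposited table. GABA-B-R3 was also the member whose nt.gene signal passed. The authors' nt.gene mean was 164016 in Mock, 48469.9 with Ph and 116832 with Sce. The nt.gene ratio of Ph to Mock was 0.296 in the authors' deposited table (p = 0.001, q = 0.044), and that of Sce was 0.712 (p = 0.06, q = 0.432). Total RNA and nt.gene were thus both lower with Ph.

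Alk stood highest with Pc and lowest with Ph. The authors' mean was 30809.7 in Mock, 16008 with Ph, 30499 with Sce and 106358 with Pc. Mock and Sce were nearly equal, while the mean with Pc was 6.64-fold that with Ph. In the authors' deposited table its ratios were 0.52 with Ph (p = 0.523, q = 0.453), 0.99 with Sce (p = 0.99, q = 0.614) and 3.45 with Pc (p = 0.037, q = 0.203). No ratio of Alk passed a q-value of 0.05. With Ph, 541 genes had a lower ratio than Alk. With Sce the nt.gene value of Alk was far under Mock, while its total RNA was nearly level with it. Its authors' nt.gene mean was 51649 in Mock, 12219 with Ph and 12488 with Sce, so the labelled groups were alike and both under Mock. The nt.gene ratios were 0.237 with Ph (p = 0.131, q = 0.297) and 0.242 with Sce (p = 0.072, q = 0.462) in the authors' deposited table. Of the 7624 genes, 62 had a lower nt.gene ratio with Ph and 45 with Sce, and neither ratio passed.

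**Figure D1:**
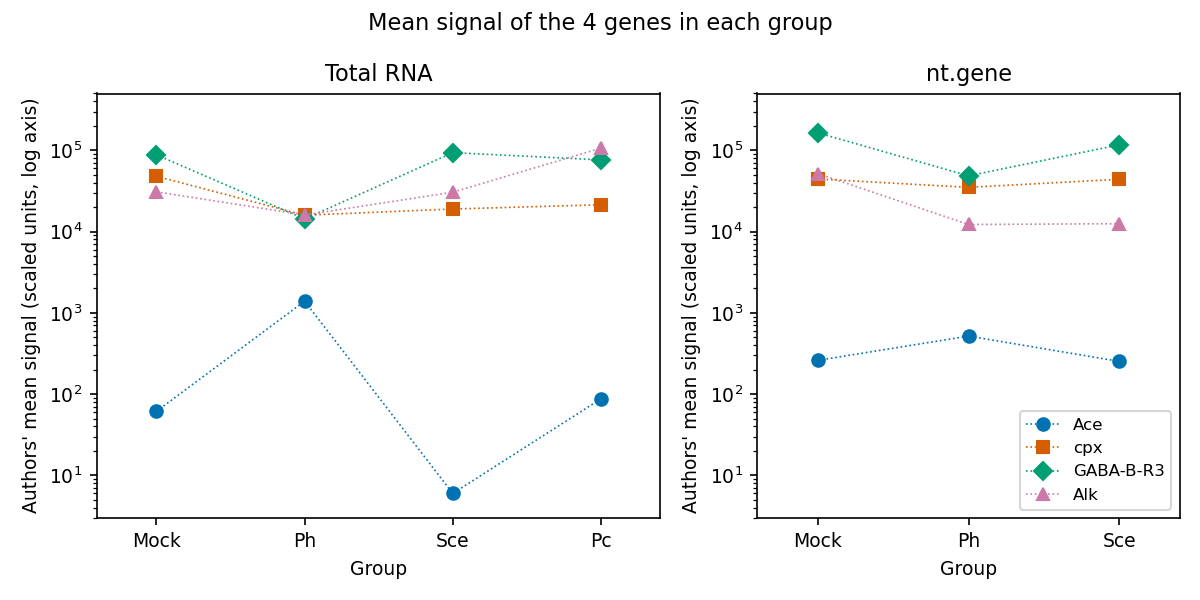
Authors' mean signal of Ace, cpx, GABA-B-R3 and Alk on a log axis in scaled units, for total RNA (left, 4 groups) and nt.gene (right, 3 groups). Points are group means without error, since values of single libraries were not used, and dotted lines only join the points of a gene. Ace peaks with Ph at 1391, GABA-B-R3 drops there to 14282, cpx is lower in all 3 labelled groups and Alk peaks with Pc at 106358.

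Counted by q under 0.05 in the authors' deposited table, 1 of the 4 genes was higher with Ph (Ace) and 1 lower (GABA-B-R3). Over all 7624 genes 3.52% were higher and 0.367% lower by that rule, and since the members were chosen on this contrast the counts say nothing more. With Sce 0 of 4 passed in either direction, against 0.236% higher and 0.0131% lower over all genes. With Pc 0 of 4 passed, against 3.04% higher and 0.144% lower. Alk was the 1 member with an unadjusted p under 0.05 there, as 1100 of all 7624 genes had. With Sce 0 of 4 had such a p, and 882 of the 7624 genes did. In the nt.gene columns 0 were higher and 1 was lower with Ph (GABA-B-R3), where 1.69% and 0.787% of all genes were. GABA-B-R3 was also the 1 member with an unadjusted p under 0.05 in that comparison, beside 1257 of all 7624 genes. The nt.gene comparison of Sce had 0 of 4 in either direction, with 0.0656% higher and 0.0525% lower over all genes. It had 0 of 4 at an unadjusted p under 0.05, beside 755 of all 7624 genes. No source used here names the test behind these q-values.

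**Figure D2:**
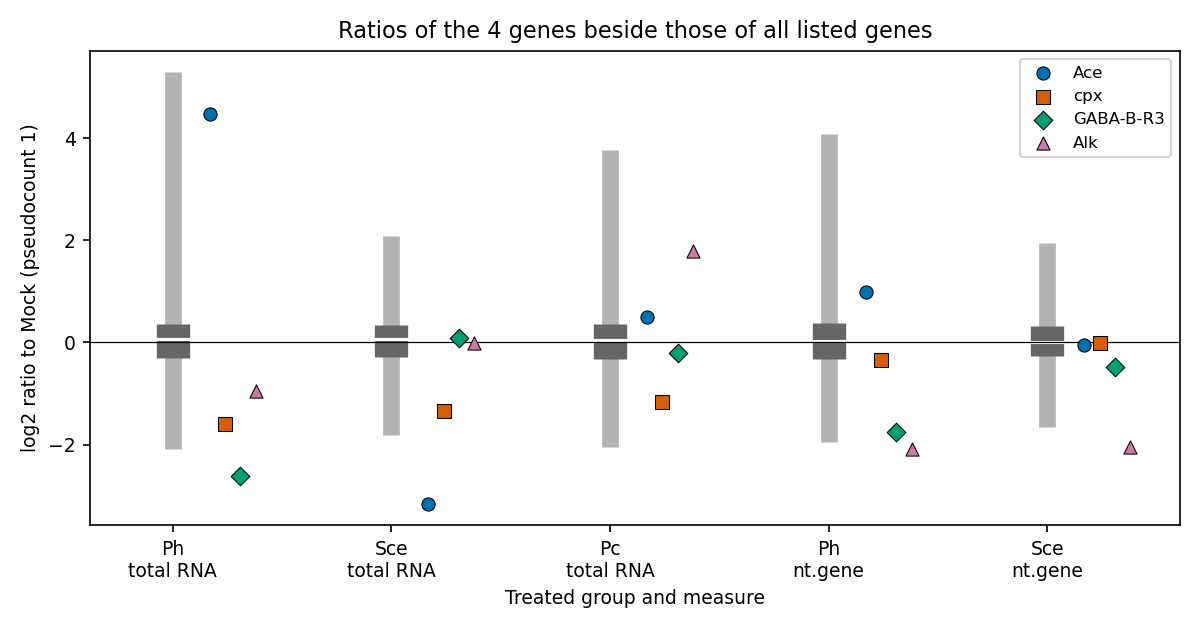
The log2 ratio to Mock (pseudocount 1) of the 4 genes in 5 comparisons, beside all 7624 listed genes. Light bars span the middle 98% of genes, dark bars the middle 50% and white lines the median. GABA-B-R3 with Ph (-2.62) and Ace with Sce (-3.16) lie under the light bars in total RNA, and Alk (-2.08 with Ph, -2.05 with Sce) lies under them in nt.gene.

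The 4 genes had different orders of the groups. On the log2 scale with a pseudocount of 1, total RNA with Ph differed from Mock by 4.48 (Ace), -0.94 (Alk), -1.59 (cpx) and -2.62 (GABA-B-R3). With Sce the same differences were -3.16 (Ace), -1.34 (cpx), -0.01 (Alk) and 0.09 (GABA-B-R3). With Pc they were 1.79 (Alk), 0.50 (Ace), -0.21 (GABA-B-R3) and -1.16 (cpx). The gene with a like sign in all 3 was cpx. The median over all genes was 0.07 with Ph, 0.06 with Sce and 0.05 with Pc. In nt.gene the log2 differences with Ph were 0.99 (Ace), -0.34 (cpx), -1.76 (GABA-B-R3) and -2.08 (Alk), so each gene had the sign of its total RNA difference. With Sce they were -0.04 (Ace), -0.01 (cpx), -0.49 (GABA-B-R3) and -2.05 (Alk).

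**Figure D3:**
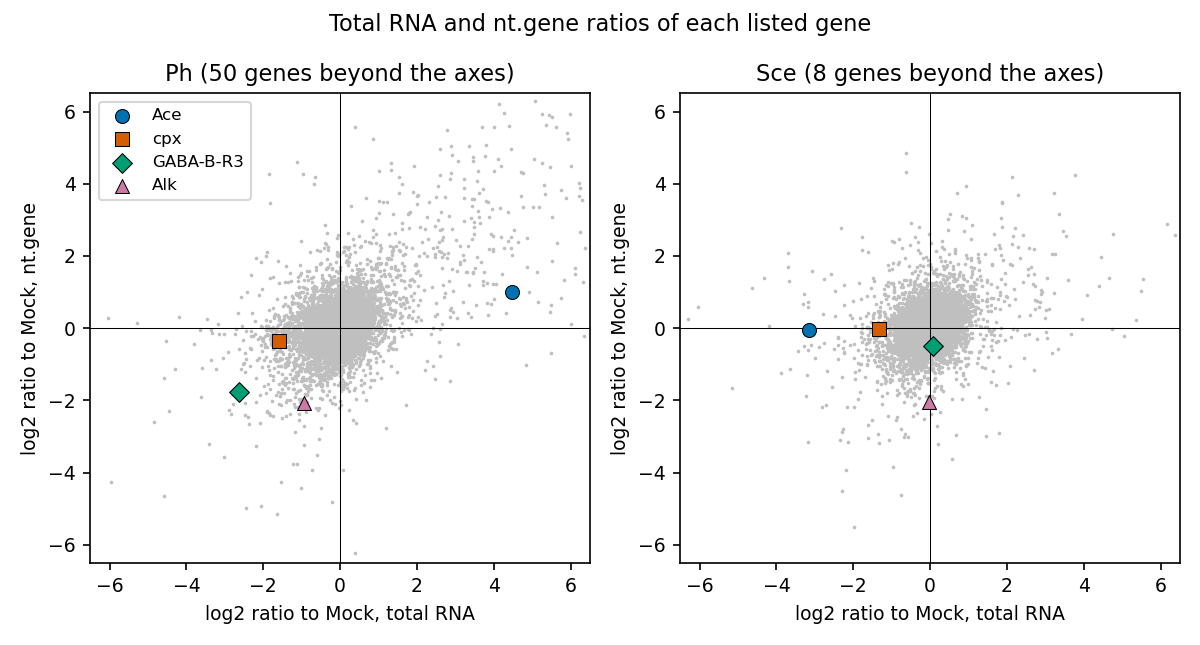
Each point is a listed gene, with its log2 ratio to Mock in total RNA on the x axis and in nt.gene on the y axis, for Ph (left) and Sce (right), and the 4 genes in colour. With Ph, GABA-B-R3 lies low on both axes (-2.62 and -1.76), and with Sce, Alk lies low on the nt.gene axis alone (-0.01 and -2.05).

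The 4 genes are long beside most of the table. Their exonic length, taken as the union of annotated exons, was 7035 bp (GABA-B-R3), 8473 bp (Ace), 9730 bp (Alk) and 11414 bp (cpx), where the median over 7517 genes matched to the annotation was 2152 bp. Among the 514 genes at least as long as GABA-B-R3, the median log2 ratio was 0.17 with Ph, 0.23 with Sce and 0.24 with Pc. Only 3 of these 514 had a lower total RNA ratio than GABA-B-R3 with Ph, 6 a lower one than cpx and 24 a lower one than Alk. Ace had a higher one than 504 of them. With Pc, 486 of the 514 had a lower ratio than Alk. These medians of long genes are above those of all genes in total RNA, and the part of length in the members' values was not tested. The annotation gives 21 transcripts of cpx, 7 of GABA-B-R3, 3 of Ace and 2 of Alk, and the table has 1 row for each gene, so transcripts are not told apart.

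The other genes of vesicle release gave the setting of cpx. Of 29 genes of the fusion machinery 16 were listed, and with Ph 0 passed, 9 having a ratio over 1 and 7 under 1. Over all genes 3.52% were higher and 0.367% lower with Ph at q under 0.05. With Sce these shares were 0.236% and 0.0131%, and with Pc 3.04% and 0.144%. At such shares a count of 0 in this list or the short lists below says little about its genes. The list's median log2 ratio with Ph was 0.04, beside 0.07 over all genes. The rule for named genes took unc-13, which primes vesicles, the SNARE gene Syb and Rop, which binds syntaxin. Their ratios with Ph in the authors' deposited table were 0.902 (q = 0.498), 0.97 (q = 0.573) and 1.41 (q = 0.161). Nsf2, an ATPase that takes spent SNARE complexes apart, was the gene that rose with Pc, at 1.40-fold with q = 0.049 in the authors' deposited table. With Sce 0 of 16 passed, with a median of 0.06. No other listed gene of the fusion machinery had a lower ratio than cpx in any of the 3 comparisons of total RNA. Named after their values were seen, synaptogyrin (0.4, q = 0.144), Rph (0.401, q = 0.191) and Caps (0.404, q = 0.315) came next with Ph in the authors' deposited table. Of 14 genes of vesicle endocytosis 11 were listed, and the endocytic adaptor gene Eps-15 rose with Ph, 1.63-fold with q = 0.024 in the authors' deposited table. The clathrin heavy chain gene Chc had ratios of 1.17 (Ph), 1.22 (Sce) and 1.24 (Pc) in the authors' deposited table, with q-values of 0.372 or more. The adaptor genes alpha-Adaptin and AP-50 had ratios with Ph of 1.07 (q = 0.484) and 1.29 (q = 0.273) in the authors' deposited table. The median log2 ratio of the 11 genes was 0.23 (Ph), 0.01 (Sce) and 0.31 (Pc).

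The genes of acetylcholine around Ace were few in the table. Of 4 genes for its synthesis, packaging and breakdown, Ace was the 1 listed. Of 12 acetylcholine receptor genes 4 were listed and 0 passed in any comparison of total RNA, with median log2 ratios of -0.63 (Ph), -0.52 (Sce) and -0.94 (Pc). Without nAcRalpha-7E, whose Mock mean is under 798.3, the median was -0.72 with Sce and -1.51 with Pc. The nicotinic receptor gene nAcRalpha-34E was nearly level, with ratios of 1.03 (Ph), 1.035 (Sce) and 0.781 (Pc) in the authors' deposited table. For nAcRbeta-21C they were 0.605, 0.515 and 0.35, and for nAcRbeta-96A 0.425, 0.607 and 0.325, in the authors' deposited table. The gene nAcRalpha-7E had an authors' mean of 292 in Mock, 201 with Ph, 235 with Sce and 857 with Pc. Its order of groups is that of Alk, but only its mean with Pc is above 798.3. Pc therefore had to be its highest group for it to be listed. In nt.gene 0 of the 4 passed.

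The GABA genes around GABA-B-R3 did not share its ratio. Of 11 genes 4 were listed, and GABA-B-R3 was the 1 that passed in total RNA. GABA-B-R2, another receptor of the family, had an authors' mean of 1298 in Mock, 1413 with Ph, 2035 with Sce and 1837 with Pc. Its ratio with Ph was 1.09 with q = 0.507 in the authors' deposited table. CG7433, annotated as Gabat, the transaminase that breaks down GABA, had an authors' mean of 1502 in Mock, 39356 with Ph, 1236 with Sce and 3199 with Pc. Its ratio with Ph was 26.2 with q = 0.089 in the authors' deposited table, and its nt.gene ratio was 20.2 with q = 0.036. The succinic semialdehyde dehydrogenase gene Ssadh, the next step of GABA breakdown, had a ratio of 1.62 with Ph (q = 0.258) in the authors' deposited table.

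Of 8 genes for G protein subunits and inward rectifier potassium channels, which GABA-B receptors are known to act through, 7 were listed. The channel gene Irk2 had authors' means of 103 in Mock, 861 with Ph, 65.8 with Sce and 117 with Pc. It rose with Ph (authors' deposited table, q = 0.02). Its Mock mean is under the level at which genes are listed, as for Ace. The G protein genes Gbeta13F, G-ialpha65A and Ggamma1 had ratios with Ph of 1.59, 1.34 and 0.767 in the authors' deposited table, with q-values of 0.127 or more. Another channel gene, Ir (annotated as Irk1), named after its values were seen, had a ratio with Ph of 0.468 in total RNA (q = 0.057) in the authors' deposited table. In nt.gene it fell, with a ratio of 0.569 and a q that the authors' deposited table rounds to 0.000.

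Most of the genes set around Alk were listed. The list held 18 genes, for the ligand, the receptor, the Ras to ERK relay and related genes such as Nf1, C3G and kirre. It is called the Alk relay here. Of the 18 genes 15 were listed, and jeb was not among them. In total RNA 0 of 15 passed with Ph, Sce or Pc, with median log2 ratios of 0.25, 0.07 and 0.30. At an unadjusted level Alk itself had p = 0.037 with Pc in the authors' deposited table, where 1100 of 7624 genes had a p under 0.05. The adaptor gene dos had ratios of 1.77 (Ph), 1.16 (Sce) and 1.68 (Pc), and the GTPase gene Ras85D 1.67, 0.957 and 1.21, in the authors' deposited table. The adhesion gene kirre, which founder muscle cells need for fusion, had ratios of 0.533, 0.818 and 0.516 in the authors' deposited table. The Raf kinase gene phl passed in nt.gene with Ph, with a ratio of 1.25 and q = 0.031 in the authors' deposited table. None of the other listed genes of this relay had a ratio as high as that of Alk with Pc, where their highest was 1.68.

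**Figure D4:**
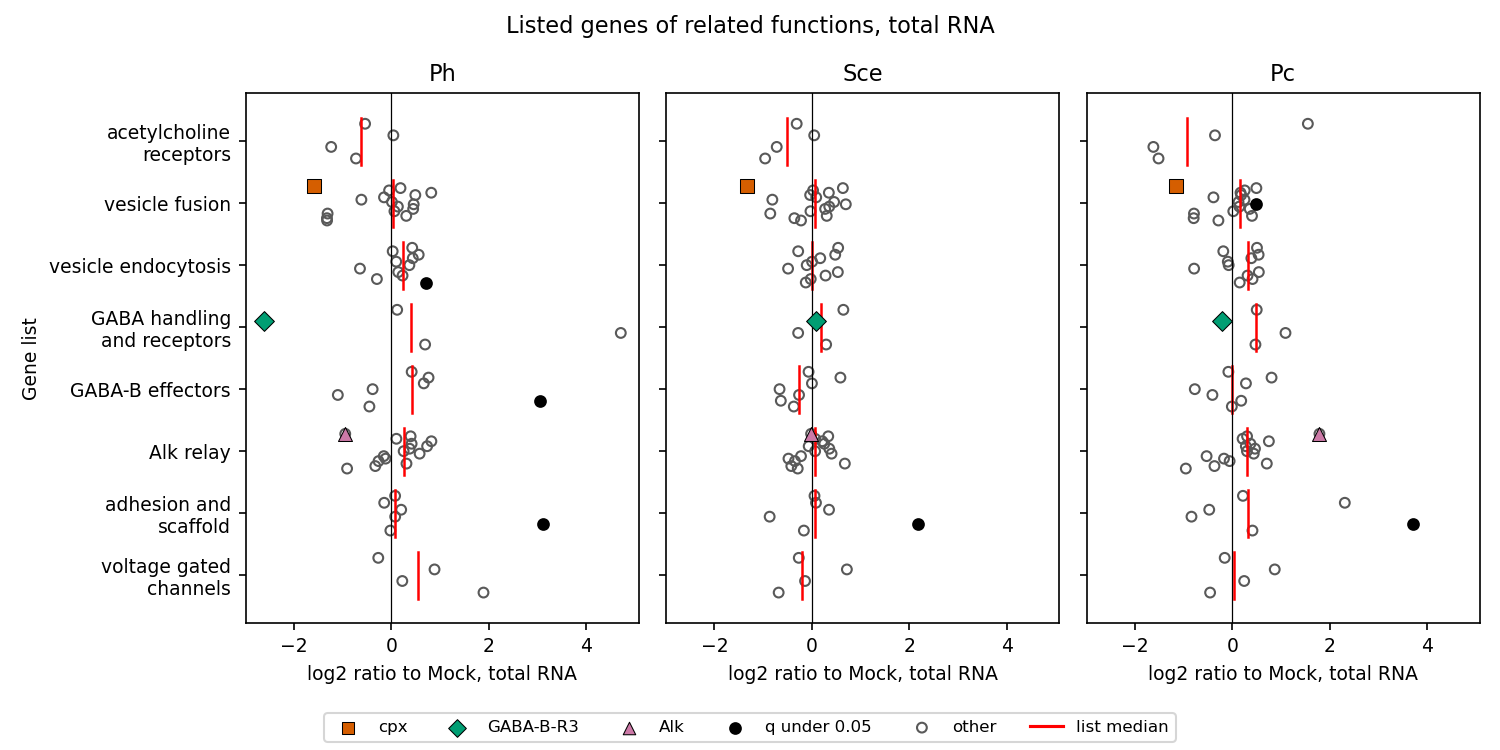
Total RNA log2 ratios to Mock of the listed genes in 8 lists of related functions, for Ph, Sce and Pc. Filled black points passed q under 0.05, open points did not, coloured symbols are cpx, GABA-B-R3 and Alk whatever their q-value, and red lines are list medians. With Ph, cpx (-1.59) and GABA-B-R3 (-2.62) lie left of every other gene of their lists, and with Pc, Alk (1.79) lies right of its list.

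Other synaptic lists had few listed genes. Of 14 voltage gated channel genes 4 were listed and 0 passed in total RNA. The calcium channel subunit gene Ca-beta had a ratio of 3.715 with Ph (q = 0.129) and cac, the presynaptic calcium channel, one of 0.831 (q = 0.441), in the authors' deposited table. The potassium channel genes sei and Shal had ratios with Ph of 1.17 (q = 0.457) and 1.85 (q = 0.164) in the authors' deposited table. Of 33 genes of glutamate and monoamine transmission 3 were listed and 0 passed, and the dopamine transporter gene DAT had authors' means of 584 in Mock, 6944 with Ph, 1378 with Sce and 2131 with Pc. Its ratio of 11.9 with Ph had q = 0.083 in the authors' deposited table. The Mock means of DAT and Shal were under 798.3, so each had to be higher in another group to be listed. The glutamate transporter gene Eaat1 and the glutamine synthetase gene Gs2 had ratios with Ph of 0.674 (q = 0.444) and 0.644 (q = 0.468) in the authors' deposited table. Of 10 genes of synaptic adhesion and scaffold 6 were listed, and Grip was the gene that passed, at 8.69 (Ph), 4.535 (Sce) and 13.1 (Pc) in the authors' deposited table. The scaffold genes dlg1, Prosap and homer had ratios with Ph of 1.06, 1.15 and 1.06 in the authors' deposited table.

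Markers of the cell types that the line could resemble were read beside these values. Of 9 neuron markers 3 were listed and 0 passed in total RNA. The authors' mean of elav was 17293 in Mock and 21194 with Ph. The ratios of elav were 1.226 (Ph), 0.941 (Sce) and 1.15 (Pc) in the authors' deposited table. For futsch they were 1.225, 0.766 and 0.815, and for Rbp9 0.478, 0.302 and 2.564, in the authors' deposited table. Only with Pc was the mean of Rbp9 above 798.3, so it had to be highest there to be listed. The summed mean of the neuron markers ranged from 19041 (Sce) to 25618 (Ph), and most of it came from elav in every group. The summed mean of the 8 listed glia markers was 672983 with Ph, and between 357338 (Sce) and 446585 (Pc) in the other groups. Of these 8, repo, nrv2 and axo rose with Ph (q = 0.004, 0.015 and 0.04) and repo and axo with Pc (q = 0.008 and 0.005) in the authors' deposited table. With Ph 3 of the 8 had ratios under 1, at 0.439 (Gli), 0.674 (Eaat1) and 0.774 (moody) in the authors' deposited table. With Pc 2 of the 8 had ratios under 1, at 0.585 (wrapper) and 0.956 (loco) in the authors' deposited table. The median log2 ratio of these 8 was 0.38 with Ph and 0.44 with Pc. Over all genes 3.52% were higher with Ph and 3.04% with Pc at q under 0.05. The 4 listed neural precursor markers summed to 7583 in Mock, 86082 with Ph, 13764 with Sce and 54405 with Pc, and pros and SoxN rose with Ph and with Pc. The mean of SoxN was above 798.3 with Ph alone, so it had to be highest there to be listed. The 5 listed muscle markers summed to 57824 in Mock and 176446 with Ph, where twi rose (q = 0.03 in the authors' deposited table). The Mock mean of twi was 236, under 798.3, so it had to be higher in another group to be listed. The authors' mean of sls alone was 15469 in Mock and 113251 with Ph, and it did not pass (q = 0.09). With Ph 4 of the 5 had ratios over 1, with Mef2 at 1.236, and Act88F was at 0.626 in the authors' deposited table. The 7 listed hemocyte markers summed to between 2255030 (Ph) and 6887675 (Pc), and the collagen gene vkg rose with Pc (q = 0.038 in the authors' deposited table). Most of that sum came from the collagen genes Cg25C and vkg in every group. With Pc 4 of the 7 had ratios over 1 and 3 under 1. The hemocyte markers Pxn, srp and crq were under 1 there, at 0.544, 0.701 and 0.877 in the authors' deposited table. Hml and eater were over 1, at 15 (q = 0.073) and 1.765 (q = 0.454) in the authors' deposited table. The mean of Hml was above 798.3 with Pc alone, so it had to be highest there to be listed. In total RNA no listed marker stood at the minimum of a column, and in nt.gene the muscle marker Act57B did so in Mock, at 0.8. Their part in the values of Ace, cpx, GABA-B-R3 and Alk was not tested.

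The genes that lie next to the 4 in the annotation were taken by position alone, 3 listed genes on each side, a choice made after the table had been examined. Neighbours in this sense are listed genes, and genes between them may be missing from the table. Of the 24 neighbours 3 rose and 0 fell with Ph, 0 passed with Sce, and 1 rose and 0 fell with Pc. Over all genes 3.52% were higher and 0.367% lower with Ph, and 3.04% and 0.144% with Pc. The neighbours that rose, Gsc, Picot and Amyrel with Ph and CG11686 with Pc, all had Mock means under 798.3, so each had to be higher in another group to be listed. The median log2 ratio of the 24 was 0.01 with Ph, -0.08 with Sce and -0.01 with Pc. The gene next to Alk upstream is Amyrel, related to amylase, and the gene after it is Picot, a phosphate transporter homologue. The authors' mean of Amyrel was 104 in Mock, 1972 with Ph, 111 with Sce and 8839 with Pc. That of Picot was 19.5 in Mock, 34503 with Ph, 132 with Sce and 1704 with Pc. Both rose with Ph (q = 0.037 and 0.023 in the authors' deposited table), while Alk was not higher there. With Pc all 3 stood above Mock, but their q-values there were 0.052 (Amyrel), 0.118 (Picot) and 0.203 (Alk) in the authors' deposited table. Downstream of Alk, CG8306 and CG8311 had ratios between 0.794 and 1.14 over the 3 groups in the authors' deposited table.

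Near GABA-B-R3 the homeobox gene Gsc had authors' means of 17.8 in Mock and 1424 with Ph. It rose with Ph (authors' deposited table, q = 0.009), and CG13689, listed between the pair, had a ratio of 1.09. The closest neighbours of Ace were CG11686 upstream, whose authors' means were 344 in Mock and 116 with Ph, and timeout downstream, with a ratio of 1.16 with Ph (q = 0.442) in the authors' deposited table. CG11686 rose with Pc, 5.30-fold with q = 0.015 in the authors' deposited table. Next to cpx, CG9766 upstream (annotated as flip) had ratios of 0.119 (Ph), 0.319 (Sce) and 0.383 (Pc) in the authors' deposited table. Beyond vps24, which had ratios between 0.72 and 0.997, MP1 had 0.318, 0.479 and 0.307 in the authors' deposited table. Neither CG9766 nor MP1 passed. The annotation also places mir-929 on the same strand and the gene Nepl11 on the opposite strand, both overlapping cpx. Neither is listed, and since the use of strand in counting is not given, their reads may not be told apart from those of cpx.

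**Figure D5:**
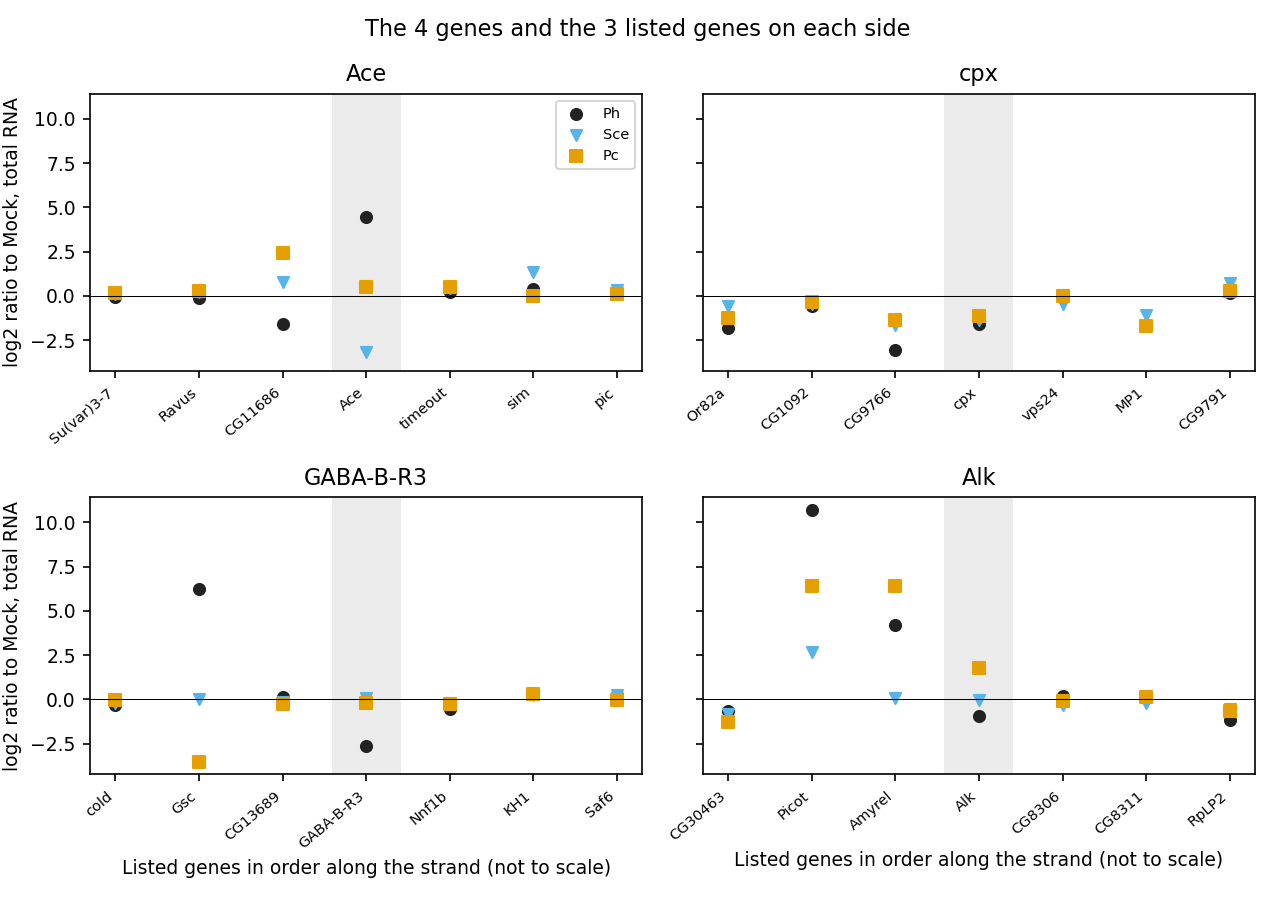
Total RNA log2 ratios to Mock of the 4 genes (grey band) and the 3 listed genes on each side, in their order along the member's strand and not to scale, for Ph (circles), Sce (triangles) and Pc (squares). Amyrel and Picot, upstream of Alk, are high with Ph and Pc, while Ace and GABA-B-R3 differ from the genes beside them with Ph.

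The genes most like each member were taken by the Euclidean distance over the 3 log2 ratios of total RNA, among 4061 genes. Genes whose symbol is a bare CG or CR number, small RNA genes and genes at the minimum of a column were left out. The ratios share Mock, and likeness over 3 numbers is a description only. Nearest to cpx were the histone H4 copies His4:CG33895 (distance 0.17), His4:CG33909 (0.26) and His4:CG33885 (0.28), whose near-identical reads may have been divided among copies. Nearest to GABA-B-R3 were the small nucleolar RNA host gene Uhg8 (0.55), the growth factor gene Idgf2 (0.64) and a histone H2A copy, His2A:CG33826 (0.76). Nearest to Alk were nAcRalpha-7E (0.56), Msr-110 (0.65) and the peptidoglycan recognition gene PGRP-LA (0.71). The genes nearest to Ace lay farther off, with m6 at 1.01, Obp44a at 1.52 and nvy at 2.10. Their log2 ratios with Ph were 5.14, 3.58 and 2.74. The means of m6 and nvy, like that of Ace, were above 798.3 with Ph alone. Each therefore had to be highest with Ph to be listed, while Obp44a had a Mock mean of 1165.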

How the data were processed

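Per the labels' protocols, ribosomal RNA was removed and libraries were made with Ion kits. The values came from 1 table of 7624 genes. Per the file headers, the authors deposited a mean signal for every group, its ratio over Mock, and a p-value and q-value to 3 decimals. The deposited total RNA signal columns had sums within 0.0209% of each other and the nt.gene columns within 0.253%, so they had been scaled. Bedtools appears in the submitters' processing notes with neither role nor version. The sources used here do not give the aligner, build, normalization, use of strand or test.

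With 0 columns for single libraries, no test was computed and the planned count test could not be run. The labels do not say that replicates came from separate cultures. The 4 genes and the 15 gene lists were chosen with earlier results of these data known. Log2 ratios used a pseudocount of 1, and calls the authors' q under 0.05. Named genes were those of a list with such a q-value in total RNA, filled up to 4 with the highest Mock mean (some of these marker genes are given by their sums), and the 3 genes nearest to each member; 1 gene of the relay with a symbol that the annotation does not pair is not described. Symbols were matched to Ensembl release 115 (7517 matched, 1792 by older names) for lengths and order only; no coordinates are given, since the build of the table is unknown. The Benjamini-Hochberg code was tested on simulated data. Python 3.11.15, numpy 2.4.6 and pandas 2.3.3 were used. Alternatives were other pseudocounts, centring, other call rules, a filter on Mock and another measure of likeness.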

Additional observations from a re-analysis of the deposited data

How the results depend on the processing

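In 20 pairings of a member with a comparison, the log2 ratio kept its sign with a pseudocount of 100, with the deposited ratio and after subtraction of the median over all genes. Its size moved most for Ace, whose total RNA difference with Sce was -0.61 and with Ph 3.21 at a pseudocount of 100. The member calls held at q under 0.1 and with Benjamini-Hochberg adjustment of the deposited p over all genes, where Ace and GABA-B-R3 had 0.0365 with Ph and GABA-B-R3 0.0468 in nt.gene. At an unadjusted p under 0.05, 1 member (Alk) passed with Pc in place of 0, as did 1100 of 7624 genes. At q under 0.1 the number of listed genes called in any total RNA comparison became 2 for vesicle fusion, 3 for endocytosis, 2 for GABA, 2 for GABA-B effectors, 2 for the Alk relay, 1 for glutamate and monoamines, 3 for neural precursors, 2 for muscle and 3 for hemocytes; the numbers at q under 0.05 were 1, 1, 1, 1, 0, 0, 2, 1 and 1. Over all 7624 genes, 699 with Ph, 30 with Sce and 412 with Pc had a q under 0.1, so more genes pass in general. With Benjamini-Hochberg adjustment vesicle fusion had 0, so that Nsf2 did not pass, and neural precursors had 1 in place of 2. With a Mock mean of at least 798.3, the acetylcholine, GABA-B effector and muscle lists had 0 and neural precursors 1, since Ace, Irk2, twi and SoxN were left out by construction. That filter moved 17 list medians and left 25 about where they were, and the sign changed for glutamate and monoamines with Sce (0.58 to -0.29), voltage gated channels with Pc (0.04 to -0.16), neuron markers with Pc (0.20 to -0.05) and hemocyte markers with Sce (-0.13 to 0.01). Replacing the distance by the largest difference exchanged 1 of the 3 genes most like GABA-B-R3 and 1 of those most like Alk. Leaving out replicates was not run. No paired analysis was possible because the table holds group means and no values per library. The unknown depth limits what can be said of Ace outside the group labelled Ph.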
